A study of Drosophila melanogaster with 76 samples.

Results

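Proneural and neuroblast genes were examined for binding of ectopically expressed transcription factors in Drosophila melanogaster S2 cells, a cultured line with properties of embryonic blood cells. The set comprised 10 named genes, ac, sc, l(1)sc, ase, dpn, wor, pros, mira, insc and nerfin-1, out of 13922 protein-coding genes on the main chromosomes of the annotation. A gene was counted as bound in a list when a peak summit lay within its span or 2 kb to either side. The genes were given as a named set, and the counting rule used none of their values. The set was chosen with earlier results of these data known.

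The cells were wild type or carried a construct for Zelda (Zld, a zinc-finger activator of the early embryo), Grainy head (Grh, a regulator of epithelial genes), Twist (Twi, a mesodermal basic helix-loop-helix protein), HA-tagged Twist (HA-Twi), or the truncated Zld-DBD and Grh-DBD, taken here as the DNA-binding domains. Expression was induced with copper sulfate, and cells were harvested 48 hours later. Zld was induced at 1000 µM, Grh at 100 µM and Twi at 40 µM in single-dose experiments. Dose series used 0, 500, 1000 and 1500 µM for Zld, 0, 25, 100 and 400 µM for Grh, and 0, 10, 40 and 160 µM for HA-Twi. Zld-DBD was induced at 100 or 400 µM and Grh-DBD at 20 or 80 µM. DMSO and the treatment labelled taz were applied to Zld (1000 µM), Grh (100 µM) and HA-Twi (40 µM) cells. Wild-type cells received 1000 µM copper where anti-Zld was used, 100 µM for anti-Grh, and 40 µM for each of anti-Twi and anti-HA. The full-length and truncated lines were profiled with antibodies against their own factor, and HA-Twi with anti-HA. The sources used here do not say whether each line is 1 clone, and peak lists hold no expression by which S2 identity could be checked.

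The series holds 76 libraries, and 31 peak lists cover 62 of them, 2 libraries to a list. The lists comprised 4 of wild type, 7 of full-length Zld, 3 of Zld-DBD, 7 of Grh, 3 of Grh-DBD, 6 of HA-Twi and 1 of Twi. They held 77 to 12106 regions each. No list separates its libraries, so no group has replicate values and no test between groups was possible. Repeat experiments, which share construct, dose and antibody, are the only measure of spread. For Zld, Grh and HA-Twi they include the DMSO lists, where spread between experiments and the DMSO treatment cannot be told apart. The files do not state how deeply each library was read. The background pileup at called summits, recovered from the deposited folds and p-values, had a 1st percentile of 14.7 to 82.7 between lists. Its scaling is unknown in all but 14 of them, so these values do not compare depth between lists. Folds in the wild-type anti-Grh list reached 386, above every other list, and gaps in its peak numbering leave 19.8% of the numbers.

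In the fly, the achaete-scute complex genes ac, sc and l(1)sc encode basic helix-loop-helix activators that let ectodermal cells acquire neural fate, and ase encodes a related factor of neural precursors. Neuroblasts, the stem cells that form from that ectoderm, express the repressors Dpn and Wor and divide asymmetrically. In that division Insc links the polarity complex to the spindle, while Mira carries Pros, a homeodomain protein that ends self-renewal, into the smaller daughter, and Nerfin-1 maintains neuronal differentiation. Proneural proteins and Twist belong to the same protein family and both recognise E-box sequences.

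Of the 10 genes, 7 had no summit within the window in any of the 31 lists: ac, sc, l(1)sc, ase, dpn, wor and nerfin-1. A complete absence of summits was found for 20.3% of all protein-coding genes, and for 25.7% of the 9731 genes with a span of at most 4 kb, a length class set after the values were seen. Of the 10 genes, 8 have such a short span, the exceptions being pros (79148 bp) and insc (14767 bp). The other 3 genes had a summit in at least 1 list, as did 79.7% of all genes and 74.3% of the short ones. pros had a summit in 25 lists, insc in 21 and mira in 1, where the median was 14 lists over all genes and 11 over the short ones. In all, 47 of the 310 gene and list combinations held a summit (15.2%), against 38.7% over all genes and 32.4% over the short ones, and the window of pros is the longest of the set. A fold in what follows is the authors' own enrichment value at a summit, and a percentile ranks that fold among the regions of the same list.

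**Figure D1:**
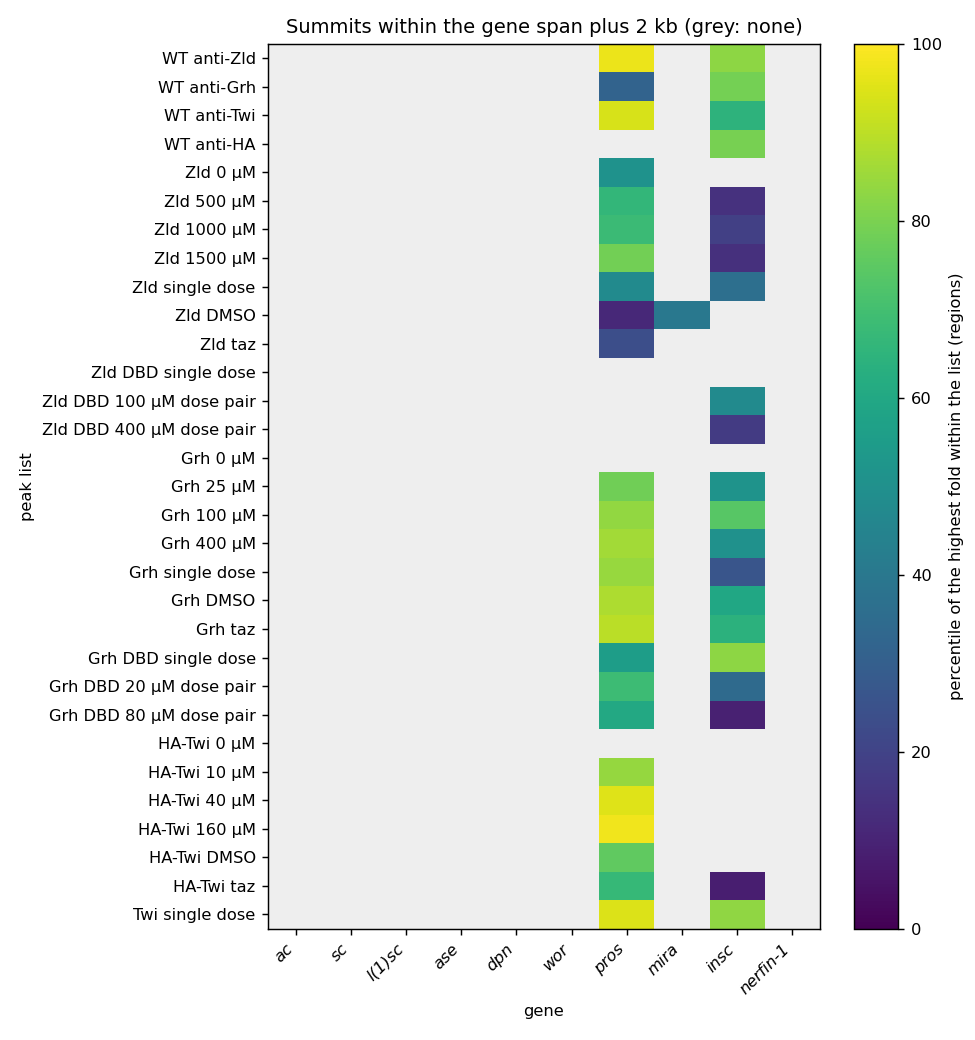
Rows are the 31 peak lists and columns the 10 genes. Colour gives the percentile of the gene's highest authors' fold among the regions of the same list, and grey marks no summit within the span plus 2 kb. Only the columns of pros, insc and mira hold colour.

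The single-dose lists of Zld, Grh and Twi each held 2 of the 10 genes, pros and insc. The shares over all genes were 54.5%, 62.9% and 67.4%. Among the short genes these shares were 47.6%, 56.3% and 60.9%, and none of the 8 short genes in the set had a summit in these 3 lists. The same was true of wild type with anti-Zld (43.6% of short genes), of Grh at 100 µM (58.1%) and 400 µM (53.3%), and of HA-Twi at 160 µM (15.8%). The HA-Twi list at 40 µM held 1 gene, pros (all genes 16.0%, short genes 8.5%). In wild type, the anti-Zld list held pros and insc (all genes 51.5%), as did the anti-Grh list (22.2%) and the anti-Twi list (28.7%). The anti-HA list held insc alone (21.2%). With any of the wild-type antibodies, 2 of 10 genes were called against 54.9% of all genes.

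**Figure D2:**
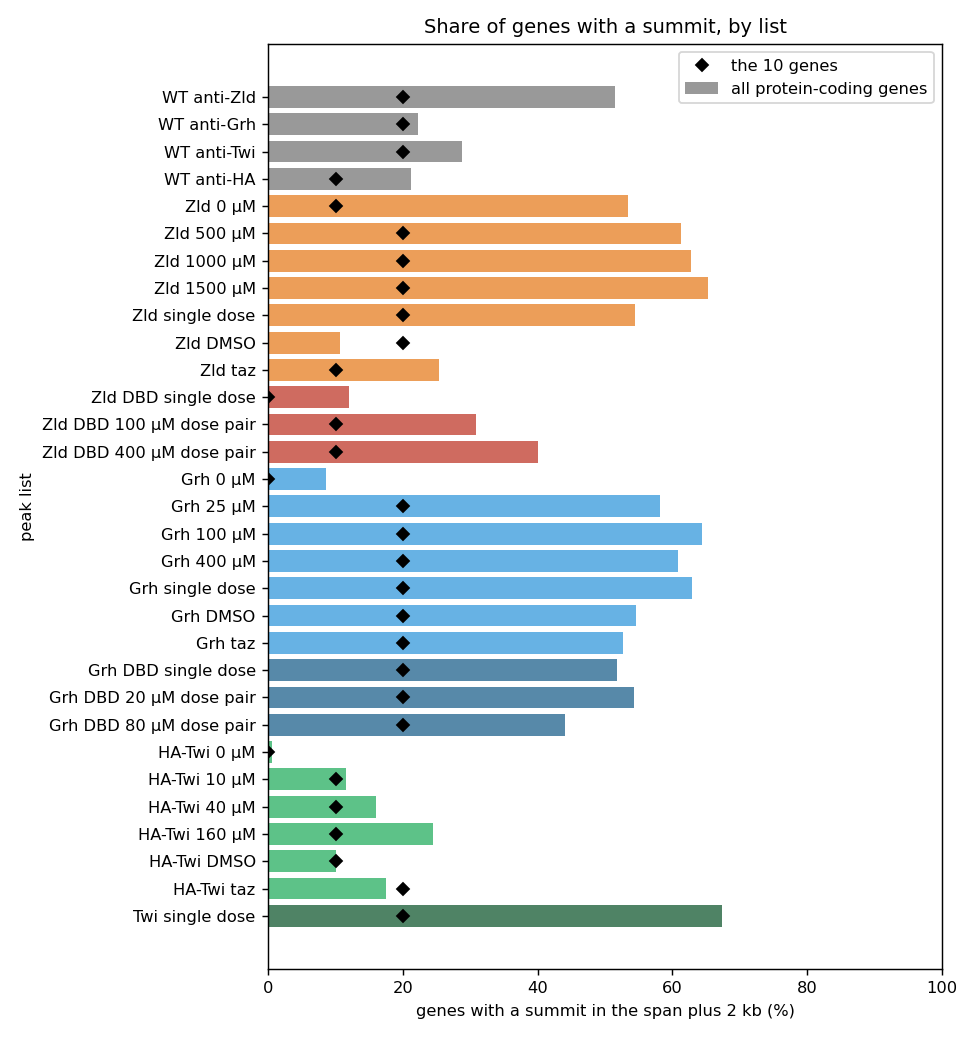
Bars give the percentage of all 13922 protein-coding genes with a summit in the span plus 2 kb in each list, coloured by construct, and diamonds give the percentage of the 10 genes. The diamonds lie at 0%, 10% or 20%, below the bar in most lists and above it in the Zld DMSO and HA-Twi taz lists.

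The 4 genes of the achaete-scute complex lie on the X chromosome of dm6: ac (370031 to 370947), sc (396060 to 397497), l(1)sc (409721 to 410817) and ase (460747 to 463176). All overlap the span of CG32816 (316576 to 470726), a long gene model called in 21 lists. No list placed a summit within 10 kb of sc or l(1)sc. The nearest summit to sc lay 17.6 kb away, and that to l(1)sc 16.4 kb away. Over the 31 lists the median distance to the nearest summit was 48.7 kb for sc, 58.7 kb for l(1)sc, 29.7 kb for ase and 27.1 kb for ac.

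Nearer to ac, summits came from Grh lists. At 3.5 kb the Grh list at 400 µM had a region (X, 374324 to 374573, fold 3.34), and at 6.54 kb a further region (fold 3.59), at the 24.0th and 29.1st percentile of that list. The Grh lists with DMSO (fold 2.81) and taz (2.52) shared a region at 7.5 kb. On the other side of ac, 8.39 kb away, a region at X 361421 to 361932 was called in the 4 Zld dose lists, including 0 µM, and in the Zld-DBD list of the dose pair at 100 µM. Its summit lay 394 bp from an end of y, the yellow gene of cuticle pigmentation. It stood at the 95.1st percentile of the Zld list at 0 µM (fold 3.72), the 99.3rd at 500 µM (5.24), the 97.7th at 1000 µM (5.27) and the 95.4th at 1500 µM (4.79). The single-dose Zld list and those with DMSO and taz, made at the same 1000 µM dose, did not call it.

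ase had a summit within 10 kb in 1 list, Zld at 0 µM, at 9.76 kb (fold 2.78). wor, on chromosome 2L (15423297 to 15425580), encodes a Snail-family zinc-finger repressor and stood farthest from any summit. Its nearest was 39.5 kb away, in the Zld list at 1500 µM, and the median over lists was 73.5 kb. sc, l(1)sc and wor were thus the 3 genes with no summit within 10 kb in any list, a state found for 7.09% of all genes. Within 5 kb, 5 of the 10 genes had none, against 12.1% of all genes. Both shares are over genes of every span, while these genes all have a span of at most 4 kb. sc, l(1)sc and ase also lie in the same complex.

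**Figure D3:**
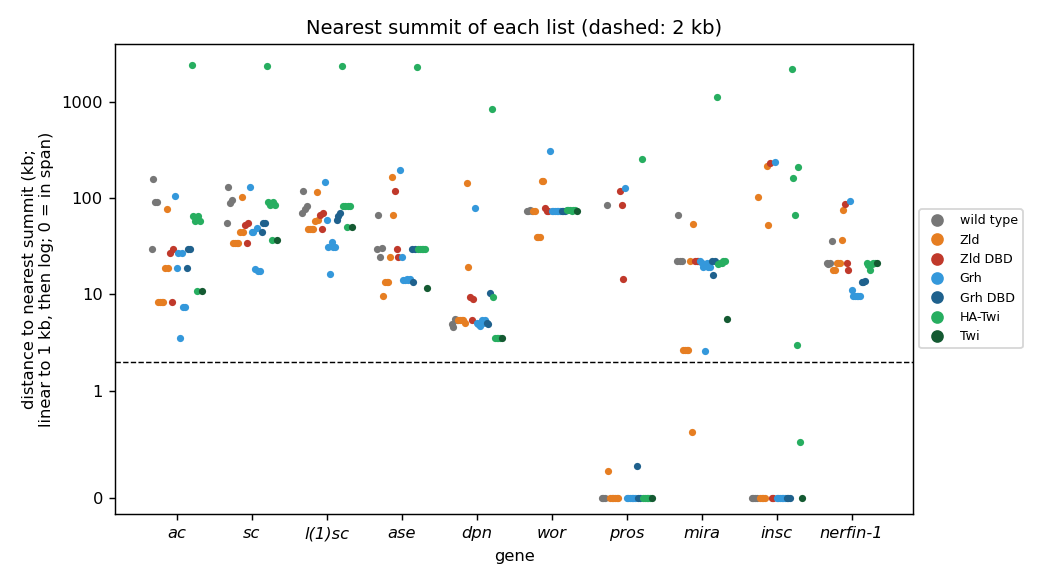
Each point is the distance in kb from a gene to the nearest summit of a list, on an axis that is linear to 1 kb and logarithmic above, coloured by construct. The dashed line marks 2 kb. Summits of pros and insc lie at 0 kb in most lists. Those of dpn lie at 3.52 kb or more, within 10 kb in 26 lists, and those of wor at 39.5 kb or more.

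dpn, on chromosome 2R (8228971 to 8232330), encodes a basic helix-loop-helix repressor of neuroblasts. It had no summit within 2 kb, but 11 lists had one within 5 kb and 26 within 10 kb, all on the side of pnut, a septin gene. The closest region (2R, 8235302 to 8236443), 3.54 kb from dpn and 1398 bp from an end of pnut, was called in 5 lists and all were Twist lists. Its fold was 7.14 in the Twi list (95.5th percentile of that list). In the HA-Twi lists its fold was 6.90 at 40 µM (97.5th percentile), 7.97 at 160 µM (97.8th), 4.39 with DMSO (69.4th) and 6.48 with taz (93.6th). It was not called at 0 or 10 µM HA-Twi, with any wild-type antibody, or in a Zld or Grh list. The next region, at pnut itself (5.45 kb from dpn), was called in 20 lists including all 4 of wild type, and another (9.42 kb) in 24 lists including 3 of wild type.

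nerfin-1, which encodes a zinc-finger factor of neurons, lies on chromosome 3L (909112 to 912319). It had no summit within 5 kb. A region 9.64 kb away (3L, 899077 to 899814) was called in 5 lists, all of full-length Grh. Its fold was 6.22 in the single-dose list, 3.88 at 100 µM, 5.42 at 400 µM, 3.82 with DMSO and 2.88 with taz, between the 42.7th and 60.0th percentile of each list. The Grh lists at 0 and 25 µM, the 3 Grh-DBD lists and wild type lacked it. An end of CG34057 was nearer, at 698 bp.

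mira encodes the adaptor that carries Pros and lies on chromosome 3R (19931799 to 19935120), within the span of Hs6st, a heparan sulfate sulfotransferase gene. Its single summit, 612 bp outside the gene (region 19930897 to 19931509), came from the Zld list with DMSO (fold 2.96, 40.0th percentile). The Zld list with taz and the other 2 lists of Zld at 1000 µM did not call it. Just outside the window, 2.63 kb from mira and 104 bp from an end of Hs6st, a region was called at every dose of the Zld series, with folds of 3.39 at 0 µM, 3.27 at 500 µM, 2.97 at 1000 µM and 3.70 at 1500 µM. No other list held it. On the opposite side, 2.56 kb away, the Grh list at 400 µM had a region of fold 4.41.

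insc, on chromosome 2R (20821262 to 20836028), encodes the adaptor protein of spindle orientation. It overlaps sktl (20827282 to 20836028), which encodes a phosphoinositide kinase and ends at the same coordinate in the annotation, so every summit inside insc also lay inside sktl. Regions fell into 2 sites. The first (20831492 to 20833559) was called in 20 lists, among them all 4 of wild type. Its summits gathered at 3 positions.

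At the first position (20832475 to 20832506) the 4 wild-type lists had their strongest summits of the site, where the fold was 7.75 for anti-Zld, 5.40 for anti-Grh, 2.36 for anti-Twi and 2.70 for anti-HA. These stood at the 64.6th to 83.1st percentile of each list. The 4 Zld lists with a summit there had folds of 1.77 to 2.69, at the 13.5th to 36.7th percentile. The second position (20831903 to 20832063) was called in 17 lists and was the sole summit at insc in the 2 Zld-DBD lists of the dose pair, with folds of 2.53 at 100 µM and 1.63 at 400 µM. The third position (20833176 to 20833289) was called in 5 Grh lists and the single-dose Grh-DBD list, and in no other. The Grh folds there ran from 3.18 to 5.44, and the Grh-DBD fold was 2.55.

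The second site of insc (20835050 to 20836814) covers the shared end of insc and sktl and was called in 10 lists. All 6 Grh lists of induced cells had their strongest summit of the site between 20835358 and 20835375, a spread of 17 bp. The Grh folds were 2.80 at 25 µM, 4.28 at 100 µM, 4.75 at 400 µM, 3.75 in the single-dose list, 3.28 with DMSO and 2.52 with taz. The single-dose Grh-DBD list placed its summit at 20835375 as well (fold 3.88, 83.0th percentile), while the 2 Grh-DBD lists of the dose pair did not call the site. Twi had its strongest summit elsewhere, at 20836507 (fold 4.92, 83.5th percentile), beyond the gene end and near the summits of HA-Twi with taz (20836551, fold 1.96) and of wild type with anti-Zld (20836524, fold 2.00).

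**Figure D4:**
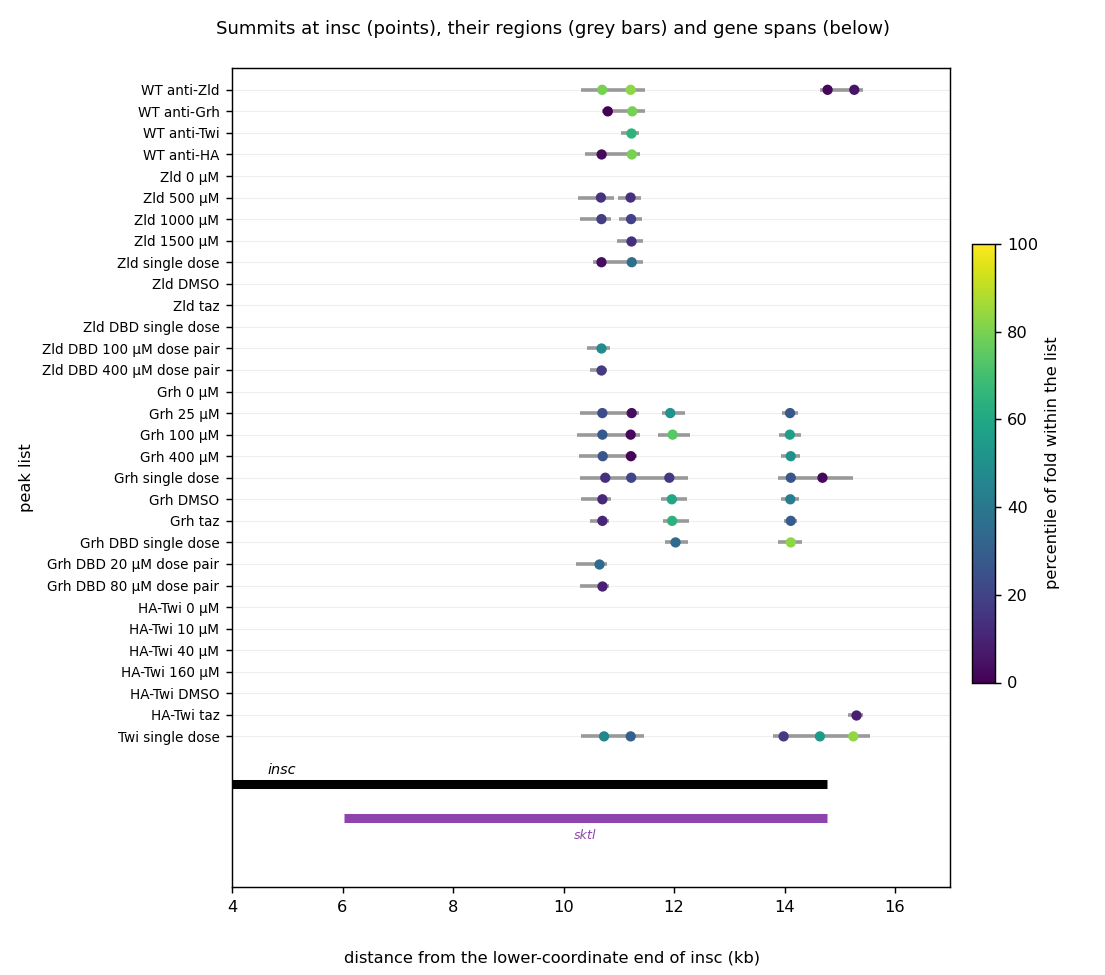
Points are summits at insc by list, coloured by the percentile of their fold within the list, grey bars are their regions, and the x axis is the distance in kb from the lower-coordinate end of insc. The columns of points near 12 and 14 kb come mainly from Grh lists, and those between 10 and 11.5 kb include wild type.

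pros, on chromosome 3R (11328480 to 11407627), encodes the homeodomain protein that commits the daughter cell to differentiation. Its regions fell into 6 sites, of which 2 also lay at an end of other genes. The site called most often (11351762 to 11354048, 22 lists) covers an end of KP78a and KP78b, kinase genes nested within pros. The second most frequent (11407565 to 11408600, 17 lists) overlaps the higher-coordinate end of pros. Its median summit lies just beyond that end, 12 bp from an end of mRpL40, a mitochondrial ribosomal protein gene. The summit there lay 247 bp from pros in the Zld list at 0 µM and 297 bp in the single-dose Grh-DBD list. Strand was not used, so the site cannot be assigned to either gene.

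The third most frequent site lay inside pros alone, 13.1 kb from its lower-coordinate end and 4752 bp from the nearest end of another gene (3R, 11340742 to 11342484). It was called in 11 lists: Twi, 5 of the 6 HA-Twi lists and 5 of the 7 full-length Grh lists. None of the 4 wild-type, 7 Zld, 3 Zld-DBD or 3 Grh-DBD lists held it. In the HA-Twi series it was absent at 0 µM and present at 10 µM (fold 4.18, 84.1st percentile), 40 µM (5.95, 95.3rd) and 160 µM (8.04, 97.9th). The repeat at 40 µM with DMSO gave a fold of 4.75 (75.5th percentile), the list with taz 3.91 (66.9th), and the Twi list 6.83 (94.6th).

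In the Grh series the same site was absent at 0 and 25 µM and present at 100 µM (fold 6.42, 83.8th percentile) and 400 µM (8.05, 84.8th). The repeats at 100 µM also held it, with folds of 3.31 in the single-dose list (18.3rd percentile) and 5.55 with DMSO (81.3rd). With taz it stood at the 59.8th percentile. The strongest summits of all 11 lists fell between 11341423 and 11341553, a spread of 130 bp. A further summit at 11342089 to 11342239 was called in 10 of them, all but HA-Twi at 10 µM. Percentiles rank a region within its own list, and lists of different length and filter cannot be ordered by them.

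**Figure D5:**
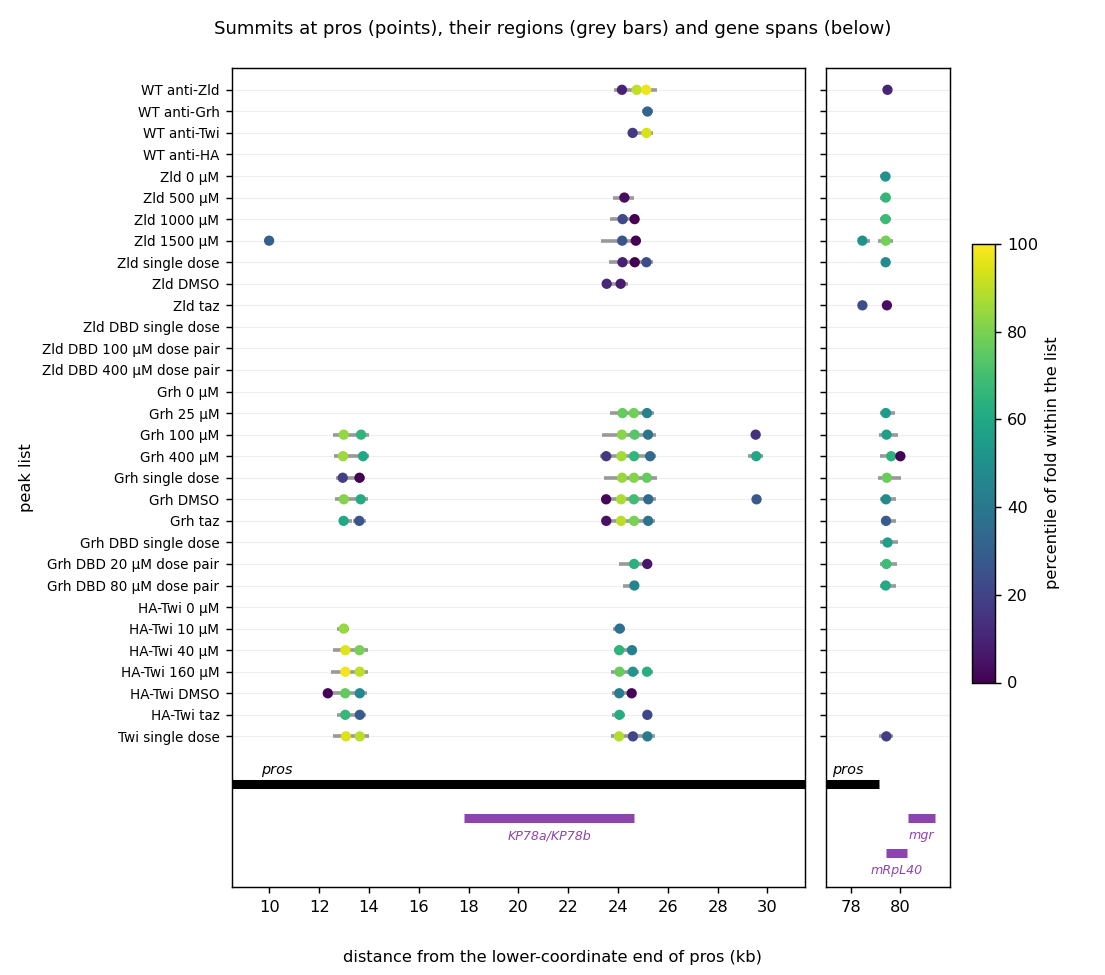
Points are summits at pros by list, coloured by the percentile of their fold within the list, grey bars are their regions, and the x axis is the distance in kb from the lower-coordinate end of pros, with the empty middle of the gene left out. The column near 13 kb holds Grh, HA-Twi and Twi lists only, and that near 24.6 kb also holds wild-type and Zld lists.

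At the KP78 site the position of the strongest summit differed between lists. The 3 wild-type lists had it between 11353607 and 11353653, where the anti-Zld fold was 16.2 (97.1st percentile), the anti-Twi fold 3.33 (93.8th) and the anti-Grh fold 2.85 (31.8th). Wild type with anti-HA did not call the site. The Twi list and the 5 HA-Twi lists of induced cells had it between 11352516 and 11352546, a spread of 30 bp, and 5 of the 6 Grh lists between 11352601 and 11352642. The Grh list at 25 µM and the 2 Grh-DBD lists of the dose pair had it at 11353112 to 11353133. The Twi and HA-Twi folds at their position ran from 2.48 to 5.57. The 6 Grh lists all had a summit between 11352601 and 11352657, with folds of 4.97 to 12.2. The 5 Zld lists with the site had summits at 11352584 to 11352732 with folds of 1.43 to 2.19. The strongest Zld summit lay elsewhere in the single-dose list (11353618, fold 2.42, among the wild-type positions) and with DMSO (11352023, fold 2.01).

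At the mRpL40 site no HA-Twi list had a summit, and wild type had 1, with anti-Zld (fold 2.25, 10.9th percentile). The 4 Zld dose lists called it at 0 µM (fold 2.28), 500 µM (2.80), 1000 µM (3.14) and 1500 µM (3.52). The single-dose Zld list (2.92) and Zld with taz (1.61) also held it, and Zld with DMSO did not. All 6 lists of induced Grh (folds 2.52 to 9.52), the Twi list (2.33) and all 3 of Grh-DBD held it as well. The Grh-DBD folds there were 2.96 in the single-dose list, 3.21 at 20 µM and 2.83 at 80 µM. It was the sole site at pros in the single-dose Grh-DBD list. The remaining sites were called in few lists: 11357711 to 11358283 in 3 Grh lists (folds 2.65, 2.82 and 5.39), 11406771 to 11407271 in Zld at 1500 µM (2.70) and with taz (2.07), and 11338301 to 11338590 in Zld at 1500 µM (2.26).

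The 0 µM lists came from the dose series and held 6719 regions for Zld, 1181 for Grh and 77 for HA-Twi. Summits were counted whose region overlapped neither the wild-type list of the same antibody nor the 0 µM list of the line. Such a summit marks a difference in calling and does not show dependence on the expressed factor. No gene of the 10 had such a summit in the single-dose Zld list (all genes 7.38%). In the Grh list pros and insc did (50.5%), as they did in the Twi list, which has no 0 µM counterpart (57.7%). In both lists these calls rested on the site inside pros alone, the mRpL40 site and the second site of insc. At the site inside pros alone the fold was 3.31 in the Grh list (18.3rd percentile) and 6.83 in the Twi list (94.6th). The HA-Twi list at 40 µM had such summits at 1 gene, pros (13.6%). When regions of all 4 wild-type lists were taken out, pros alone was left in the Grh list (all genes 27.7%) and in the Twi list (40.0%). Among the other Zld lists, mira had such a summit with DMSO (all genes 6.72%), and none of the 10 did at 500 µM (12.0%) or 1000 µM of the series (13.7%). pros had one at 1500 µM (20.8%) and with taz (5.01%), at the sites called in few lists. These lists at other doses and with taz were examined after the values were seen.

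Across doses, the Zld series called pros at 0 µM (1 of 10 genes, all genes 53.4%) and pros and insc at 500 µM (61.2%), 1000 µM (62.8%) and 1500 µM (65.3%). Only insc was thus called at the highest dose and not at 0 µM (all genes 13.4%). The Grh series called none of the 10 at 0 µM (8.61%) and pros and insc at 25 µM (58.1%), 100 µM (64.4%) and 400 µM (60.8%). Both were therefore called at the highest dose and not at 0 µM (all genes 52.3%). HA-Twi called none at 0 µM (0.51%) and pros alone at 10 µM (11.6%), 40 µM and 160 µM (24.4%), which made 1 gene at the highest dose and not at 0 µM (23.9%). The number of genes of the set was the same at every induced dose of each factor.

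Between DMSO and taz the called genes differed by at most 1 per factor. Zld with DMSO held pros and mira (all genes 10.7%) and with taz pros (25.4%). The pros calls were at different sites, at 11352023 and 11352584 with DMSO and at 11406950 and 11407935 with taz. In 1 of these lists only stood 22.2% of all genes. mira was the gene called with DMSO and not with taz (all genes 3.74%), and no gene of the set was called with taz alone (18.4%). Grh held pros and insc both with DMSO (54.6%) and with taz (52.6%), where 6.45% of all genes were called in 1 of these lists only (2.25% with taz, 4.2% with DMSO). HA-Twi held pros with DMSO (10.1%) and pros and insc with taz (17.4%). Of all genes, 8.25% were called in 1 of these lists only, and 0.445% with DMSO and not taz. insc was called with taz and not with DMSO (all genes 7.8%), by the region with fold 1.96 beyond the gene end.

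The truncated factors were compared at other copper doses than the full-length ones, so their values stand side by side. The single-dose Zld-DBD list (100 µM) called none of the 10 genes (all genes 12.0%), so that pros and insc were in the full-length list only (43.4%). The Zld-DBD lists of the dose pair called insc at 100 µM (30.8%) and 400 µM (40.1%), and no Zld-DBD list called pros. The 2 Zld-DBD lists at 100 µM thus differed in insc. All 3 Grh-DBD lists called pros and insc (51.7% in the single-dose list, 54.3% at 20 µM and 44.1% at 80 µM), and no gene was in the full-length list only (14.6%). No gene of the set was called for the truncated factor alone, for Zld (all genes 0.869%) or for Grh (3.38%). The site 13.1 kb inside pros, found in 5 of 7 lists of full-length Grh, was in none of the 3 lists of Grh-DBD. The full-length Grh lists at 0 and 25 µM lacked it too. Whether the lower doses or the truncation account for its absence with Grh-DBD was not tested.

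Among repeat experiments, the 3 lists of Zld at 1000 µM all called pros, 2 called insc and 1 called mira. Of all genes, the single-dose list called 54.5%, that of the dose series 62.8% and that with DMSO 10.7%. The DMSO list was the one that called mira and not insc. The 3 of Grh at 100 µM all called pros and insc (all genes 62.9%, 64.4% and 54.6% in the same order). Both of HA-Twi at 40 µM called pros and neither called insc (all genes 16.0% in the dose series and 10.1% with DMSO).

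A list of 37 further genes of neurogenesis was examined in the same window. A summit was found at 20 of them in the single-dose Zld list, 25 in that of Grh, 23 in that of Twi and 15 in the HA-Twi list at 40 µM. The shares over all genes in these lists were 54.5%, 62.9%, 67.4% and 16.0%, and over the short ones 47.6%, 56.3%, 60.9% and 8.5%. The 37 genes were not matched to other genes by span. Outside wild type and 0 µM the counts were 4, 17, 21 and 15, beside 7.38%, 50.5%, 57.7% and 13.6% of all genes. In wild type, 20 of the 37 had a summit with anti-Zld (all genes 51.5%) and 12 with anti-Grh (22.2%). With anti-Twi 15 had one (28.7%), and with anti-HA 5 (21.2%). Of the 37 genes, 11 had none in any list, a state found for 20.3% of all genes and 25.7% of the short ones. These were ato, amos, cato and tap, 4 of 6 in the group of other proneural and helix-loop-helix genes. They also included vnd, ind, sna, esg, scrt and tll, 6 of the 11 factors of neuroblast identity. The last was hb, 1 of 6 temporal factors. All 9 genes of asymmetric division and all 5 of the Notch pathway had a summit in at least 1 list, as had 79.7% of all genes.

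Among the helix-loop-helix genes with a summit were da, the general partner of proneural proteins, and emc, which inhibits them. Outside wild type and 0 µM, da had a fold of 3.98 in the Grh list (2L, 10385994 to 10386822, 29.9th percentile) and 2.42 in the Twi list (21.8th). emc had a fold of 1.97 in the Twi list (5.0th percentile) and 2.49 in the HA-Twi list (40.5th).

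Of the identity factors, klu, a zinc-finger gene of neuroblasts, had a Grh fold of 17.3 (91.4th percentile) outside those lists. The homeobox gene Dr (fold 15.7, 89.8th percentile) and the Sox gene D (5.46, 50.3rd) also had such Grh summits. Twi summits outside wild type stood at erm (fold 6.74, 94.4th percentile), klu (6.12, 91.6th), D (5.91, 90.6th) and SoxN (5.29, 86.6th). The HA-Twi list had SoxN (5.67, 93.8th), klu (4.42, 85.2nd), erm (3.06, 62.0th) and Dr (1.86, 8.8th). No identity factor had a Zld summit outside wild type and 0 µM.

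Of the temporal factors, which mark the age of a neuroblast, Kr had a Zld fold of 5.56 (94.4th percentile) outside wild type and 0 µM. Grh had such summits at the POU genes nub (fold 18.3, 92.3rd percentile) and pdm2 (7.55, 68.0th). It also had them at the nuclear receptor gene svp (12.8, 85.5th) and at Kr (7.89, 69.9th). Twi had them at nub (5.31, 86.7th), svp (5.14, 85.4th) and pdm2 (4.00, 72.0th), and HA-Twi at nub (3.00, 60.3rd), pdm2 (2.88, 56.1st) and svp (2.75, 51.2nd).

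For asymmetric division, brat, which limits growth of the daughter cell, had a summit outside those lists with every factor. Its fold was 5.74 for Zld (94.9th percentile), 13.8 for Grh (87.2nd), 8.25 for Twi (98.0th) and 7.82 for HA-Twi (98.9th). baz, the polarity gene whose product recruits Insc, also had one with every factor. Its fold was 6.03 for Zld (95.8th percentile), 6.91 for Grh (63.6th), 5.85 for Twi (90.3rd) and 2.92 for HA-Twi (57.6th). Folds rank regions only within a list. l(2)gl had folds of 4.38 for Zld (87.2nd percentile) and 7.12 for Grh (65.2nd), and pon, a partner of Numb, 8.81 for Grh (74.6th). Twi summits stood at stau (5.89, 90.4th) and numb (3.62, 64.0th), and HA-Twi summits at numb (4.82, 89.0th) and stau (4.26, 83.3rd).

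In the Notch pathway, which restricts neural fate to single cells, no gene had a Zld summit outside wild type and 0 µM. At N the Grh list had a fold of 11.6, the Twi list 9.12 and the HA-Twi list 8.04 (99.2nd percentile). neur had 8.12, 6.37 and 6.48 in that order, and Delta 4.90, 7.16 and 3.77. H had 5.22 for Grh and 3.19 for Twi.

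The genes whose in-list percentiles over the 31 lists were most like those of pros were bol (Pearson r = 0.89), slim (0.89) and CG6788 (0.89), and for insc they were pyx (0.88), CG5455 (0.86) and CG9447 (0.85). The lists share antibodies, lines and filters, and these correlations only describe which genes were called in the same lists.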

How the data were processed

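The data are 31 narrowPeak lists of ChIP-seq in S2 cells, 1 per group of 2 libraries. The lists do not separate their libraries. Per the submitters' processing notes the work used Bowtie2 2.4.4, MACS2 2.2, deepTools 3.5.1 and dm6, and no settings or roles are listed. Each list gives, as deposited by the authors, a fold (an enrichment ratio at the summit), a −log10 p-value and a −log10 q-value. The summit position, a further column, was deposited by the authors in bases from the region start. The folds are the authors' and were used only to describe or rank regions within a list. How the lists were filtered is not stated: 16.7% to 86.8% of the peak numbers were kept, and the lowest fold of a list ranged from 1.04 to 1.39.

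Summits were placed at start plus offset, and 2 that lay beyond their region were moved to its last base. Gene spans came from the RefSeq table of Release 6, the assembly of dm6, without strand or exons. The gene Dl stands in that table as Delta. Regions were joined into sites when they overlapped by 1 bp, and a summit counted as outside wild type when its region overlapped no region there by 1 bp. Summits at most 150 bp apart were grouped. No p-value was computed, because groups have no replicate values. Background pileup was recovered from fold and −log10 p-value (up to 250) with a Poisson model, and is its 1st percentile per list. Scripts were tested on simulated data and run in Python 3.11.15 with NumPy 2.4.6, pandas 2.3.3, SciPy 1.17.1 and Matplotlib 3.10.9.

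The genes, the related lists and the alternatives were chosen with earlier results of these data known. The regions 2 to 10 kb away, the summit positions and the class of short genes were added after the values were seen. All 10 genes are named. Related genes are named by fold, at most 4 per group and list, when outside wild type and 0 µM; those in no list were named after their values were seen. The 3 most similar genes are named for genes called in at least 6 lists. Alternatives were gene span alone, 5 kb, −log10 q of at least 10, 1 summit per region, all wild-type lists, summits within 250 bp, repeat experiments and, added later, lists at other doses and with taz. Planned motif counts were not made, as no sequence was used. The 14 libraries of input and IgG were not analysed here.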

Additional observations from a re-analysis of the deposited data

How the results depend on the processing

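Of 80 counts for 13 comparisons under other settings, 64 stayed within 1.5 times the count first given and 16 did not; in 3 of the 64 the genes themselves changed. Shares over all genes under the same setting stand in parentheses. With the gene span alone, 2 genes (pros and insc) were called at the highest Zld dose and not at 0 µM (9.55%), 0 differed between taz and DMSO for Zld (5.59%) and 0 for HA-Twi (4.22%), and 1 (pros) was in the full-length Grh list only (9.99%). With 5 kb to both sides, HA-Twi had 2 genes outside wild type and 0 µM, dpn and pros (21.6%). The Grh series then had 5 at the highest dose and not at 0 µM, ac, dpn, pros, mira and insc (61.7%), and the HA-Twi series 3, dpn, pros and insc (36.6%). That window also added dpn to pros and insc for Twi outside wild type (71.3%) and in wild type (67.7%). With a −log10 q of at least 10, taz and DMSO differed in 2 genes for Zld, pros and mira (13.8%), and 0 for HA-Twi (6.91%). Removing all 4 wild-type lists left 1 gene, pros, for Grh (27.7%) and 1, pros, for Twi (40.0%). Outside wild type and 0 µM, Zld had 1 gene with DMSO (mira, 6.72%), 1 at 1500 µM (pros, 20.8%) and 1 with taz (pros, 5.01%), and HA-Twi had 2 with taz (pros and insc, 16.2%). The single-dose Zld list held 1 gene, pros, that Zld-DBD at 100 µM of the dose pair lacked (26.3%). Zld with DMSO against single-dose Zld-DBD again gave 2 genes, but pros and mira in place of pros and insc (7.71%). The 9 counts from lists at other doses and with taz were chosen after seeing the data. The cause was not tested.

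No paired analysis was possible because each deposited list combines its 2 libraries, so replicate numbers cannot be told apart, and leaving out a replicate was not run for the same reason. A missing summit means that the deposited list held none there, which at unstated depth and filter does not show absence of binding.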
